A study of Saccharomyces cerevisiae with 24 samples.

Results

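Microtubules are built from tubulin and moved along or reshaped by kinesins, and the transcripts of 9 such genes were followed here in budding yeast arrested in G1 and in mitosis. The genes were taken by systematic identifier, with no threshold on their values, from the 7218 features of the deposited expression table. They comprised 4 tubulin genes, TUB1 (YML085C), TUB2 (YFL037W), TUB3 (YML124C) and TUB4 (YLR212C), and 5 kinesin genes, CIN8 (YEL061C), KIP1 (YBL063W), KIP2 (YPL155C), KIP3 (YGL216W) and KAR3 (YPR141C). All 9 passed the filter on low counts in each library type.

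The study asked how gene expression responds to depletion of condensin, a protein complex that gives chromosomes their structure, through its subunit Ycg1. All cells were W303-1A of mating type a. Control cells carried Ycg1 with a 3PK epitope (Ycg1-3PK, marked with K.lactis TRP1). Ycg1Degron1 cells carried YCG1 behind the methionine-repressible MET3 promoter, with 3PK and 3miniAID tags on the protein, and the ubiquitin ligase subunit OsTIR1-9Myc under the ADH1 promoter, which together allow Ycg1 to be shut off with methionine and auxin. Both strains were cultured at 25°C, held in G1 with the mating pheromone α-factor for 1.5 h, and moved, still in pheromone, to rich medium with 88 μg/ml auxin. The G1 sample was collected there after 2 h. The same cultures were released into rich medium with auxin and nocodazole for 2 h to give the M sample. Nocodazole is a drug that depolymerises microtubules, so that the M cells were arrested by a poison of the polymer that α- and β-tubulin form and on which the motors work. Cell cycle stage, the arresting agent and the later time of sampling cannot be told apart in this design.

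Each RNA sample was made into a polyA library and a total RNA library, which gave 24 libraries in 4 groups of 6 (G1 polyA, M polyA, G1 total and M total). The table names each library by arrest, library type, replicate number and a code, 14 or 18, with 3 replicates per code in each group. Libraries of a code and replicate number are called a culture below, a pairing that was inferred from the matching numbers. The strain is what remains among the factors in the labels, but no label says which strain a code stands for, and the codes were left unnamed throughout. Differences between the codes are therefore given as code 18 against code 14 and are not read as an effect of depletion in either direction.

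α-Tubulin, encoded by TUB1 and TUB3, and β-tubulin, encoded by TUB2, form the dimer that polymerises into the microtubule, while γ-tubulin, encoded by TUB4, nucleates microtubules at the spindle pole body. Cin8 and Kip1 are kinesin-5 motors that push the spindle poles apart, Kip2 carries cargo towards plus ends and stabilises cytoplasmic microtubules, and Kip3 is a kinesin-8 that shortens microtubules from their plus ends. Kar3 is a minus-end-directed kinesin-14, which with its partner Cik1 draws nuclei together during mating and with Vik1 acts at the spindle pole.

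By the RefSeq annotation of R64, the assembly to which the authors aligned their reads, the 9 genes lie on 7 chromosomes. The α-tubulin genes are both on the minus strand of chromosome XIII, TUB1 at 97941 to 99400 with an intron of 116 bp and TUB3 at 22048 to 23683 with an intron of 298 bp. The other 7 have no intron. TUB2 lies on chromosome VI at 56336 to 57709 (plus strand) and TUB4 on chromosome XII at 564860 to 566281 (minus strand). Of the kinesin genes, CIN8 lies on chromosome V at 36535 to 39537 (minus), KIP1 on chromosome II at 101886 to 105221 (plus), KIP3 on chromosome VII at 84885 to 87302 (plus), and KIP2 at 257216 to 259336 and KAR3 at 815734 to 817923 on chromosome XVI (minus).

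The promoters of the tubulin and kinesin genes and of the partners of KAR3 were inspected. The 250 bases before each start codon were read from the RefSeq annotation and genome of assembly R64 and searched on both strands for TGAAACA (pheromone response element), ACGCGT (the MCB element of G1/S genes, which reads the same on both strands) and CACGAAA (the SCB element of G1/S genes). The element TGAAACA was in 6.0% of the 6020 promoters of protein-coding genes searched, ACGCGT in 2.9% and CACGAAA in 3.8%. Among the 8 tubulin and kinesin genes for which the search is reported, 0 promoters held TGAAACA, 1 held ACGCGT and 2 held CACGAAA. The stretch from 250 to 101 bases before the start codon is shown for KAR3 (chrXVI:818024-818173, minus strand) and for CIK1 (chrXIII:659495-659644, plus strand), the gene of its mating partner, because their transcripts fell furthest in M among the 9 genes and the genes listed as acting with them. Capitals mark a motif match.
KAR3: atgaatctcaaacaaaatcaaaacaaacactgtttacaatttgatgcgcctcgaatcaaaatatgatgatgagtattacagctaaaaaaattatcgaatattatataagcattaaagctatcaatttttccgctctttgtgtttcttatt
CIK1: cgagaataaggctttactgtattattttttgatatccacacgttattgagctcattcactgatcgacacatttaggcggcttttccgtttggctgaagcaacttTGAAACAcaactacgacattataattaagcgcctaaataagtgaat
The CIK1 stretch held TGAAACA at 146 to 140 bases before the start codon, whereas the KAR3 window held none of the 3 sequences.

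Matches in 3 of the tubulin and kinesin genes are shown as 30-base windows. TUB3 (chrXIII:23763-23792, minus strand) held CACGAAA at 98 to 92 bases before its start codon. TUB4 (chrXII:566393-566422, minus strand) held ACGCGT at 129 to 124 bases. CIN8 (chrV:39757-39786, minus strand) held CACGAAA on the strand opposite to the gene, at 238 to 232 bases.
TUB3: cctctggaaacCACGAAAcgttttacaaat
TUB4: ccgggtaacagaACGCGTtaatattatctt
CIN8: aatgttttcgtTTTCGTGtgtggtgacgat
TUB3 fell in M, TUB4 rose, and CIN8 did not pass the test. A match describes the letters in this window only.

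PolyA libraries held 10282599 to 22171825 counts, of which 2.244 to 10.523% were ribosomal RNA, and total libraries held 13932410 to 21650543 counts, of which 95.523 to 95.991% were ribosomal RNA. The 9 genes together received 9566 to 22407 counts in a polyA library and 451 to 700 in a total library, with a lowest value of 8 for KAR3, so that the polyA libraries carry the more precise values. Levels are given as CPM, the usual scaling of counts to a common library size, here with TMM factors that correct for library composition and with ribosomal and spike-in rows left out. STE2, the α-factor receptor of a cells, was at 990 to 1605 CPM in G1 polyA libraries, whereas the α-cell genes STE3 and MFALPHA1 did not exceed 2.90 CPM in any library. All 4 a-cell markers (STE2, MFA1, MFA2 and BAR1) fell in M in each library type. All 5 mitosis markers (CLB1, CLB2, CDC5, CDC20 and SWI5) rose in M in each library type. Of the 4 markers of pheromone-treated G1, 3 fell (FIG1, FUS1 and AGA1, not SIC1). YCG1 itself was at 15.2 to 20.7 CPM in code 14 and 91.3 to 107.9 CPM in code 18 in G1 polyA libraries. In M polyA libraries it was at 14.4 to 17.7 CPM in code 14 and 75.7 to 85.4 CPM in code 18. On the log2 scale code 18 stood above code 14 by 2.53 in G1 and 2.30 in M polyA libraries. The difference was smaller in total libraries, at 0.58 in G1, which did not pass the test, and 1.56 in M, which did. These values were not used to name the codes.

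**Figure D1:**
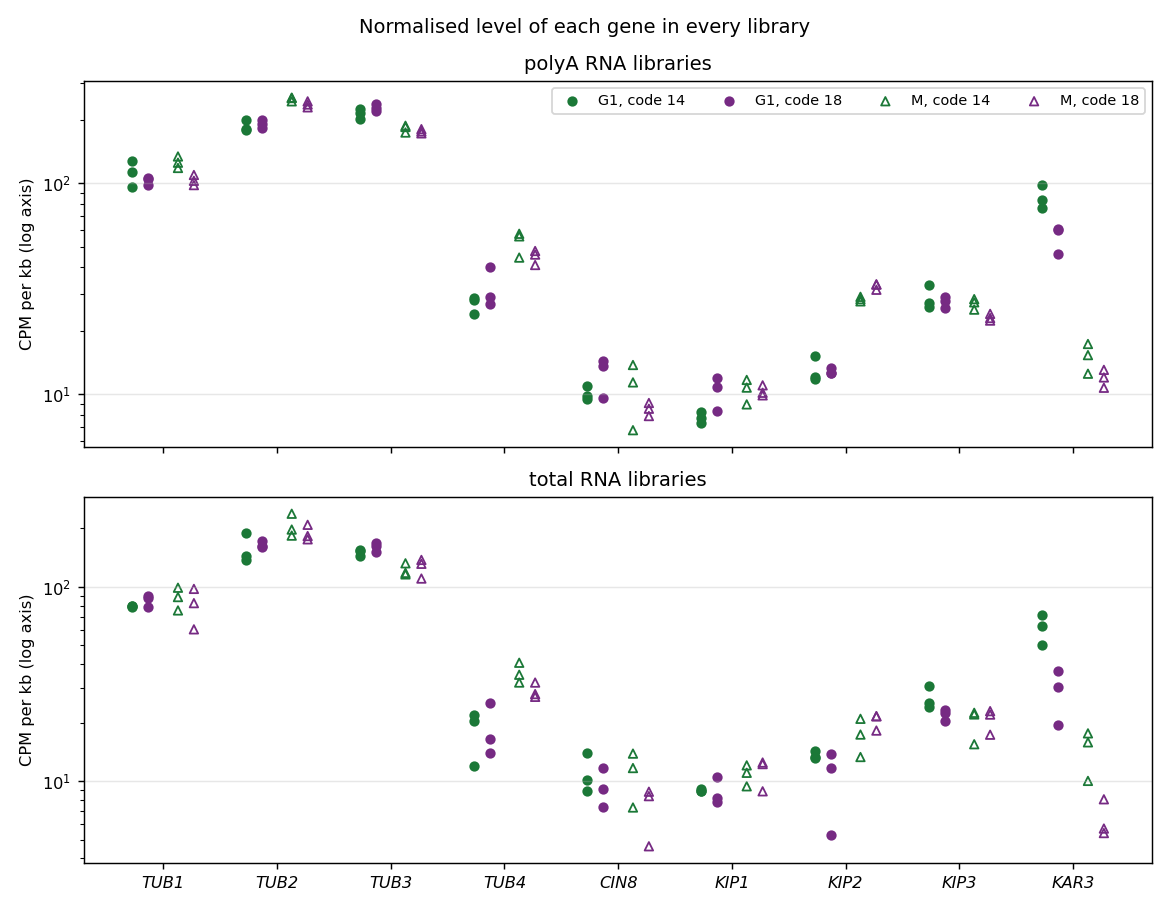
Normalised level of each gene in every library, as CPM per kilobase of coding sequence on a log axis, with polyA libraries above and total RNA libraries below. Filled circles are G1 and open triangles M, green is code 14 and purple code 18, with 3 libraries each. In the polyA panel the KAR3 circles lie between 46.3 and 97.7 and its triangles between 10.8 and 17.3.

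Divided by coding length, so that genes can be set side by side, the α- and β-tubulin genes were the most abundant of the 9. In G1 polyA libraries TUB3 stood highest at 221 ± 11.96 CPM per kb (SD, n = 6), followed by TUB2 at 189 ± 8.88 and TUB1 at 108 ± 11.5. KAR3 came next at 70.7 ± 18.6 CPM per kb, and its range overlapped that of TUB1. TUB4 at 29.4 ± 5.58 and KIP3 at 28.1 ± 2.70 CPM per kb overlapped each other, as did KIP2 at 13.0 ± 1.24, CIN8 at 11.4 ± 2.18 and KIP1 at 9.07 ± 1.88 at the low end of the order.

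In M polyA libraries the order was rearranged at several places. TUB2 stood above TUB3, at 244 ± 9.86 against 179 ± 6.01 CPM per kb (SD, n = 6), and their ranges did not overlap. TUB1 followed at 115 ± 13.7 and TUB4 at 48.8 ± 6.63 CPM per kb. KIP2, at 30.4 ± 2.48 CPM per kb, had moved above KIP3 at 25.0 ± 2.36, with overlapping ranges. KAR3 had moved from the fourth place to the seventh, at 13.5 ± 2.41 CPM per kb, where it overlapped KIP1 at 10.4 ± 0.959, which in turn overlapped CIN8 at 9.58 ± 2.57. The total libraries gave TUB2 and TUB3 with overlapping ranges in G1, at 161 ± 18.5 and 156 ± 8.22 CPM per kb. In M they placed TUB2 at 198 ± 23.0 above TUB3 at 124 ± 10.9 CPM per kb without overlap. There KIP3 stayed above KIP2, at 20.4 ± 3.15 and 18.8 ± 3.24 CPM per kb, with overlap. KAR3 at 10.4 ± 5.18 CPM per kb stood below KIP1 at 11.0 ± 1.54, also with overlap.

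The comparison of M with G1 asked which of these transcripts differ between the arrests. In polyA libraries KAR3 fell about 5-fold and TUB3 fell slightly, whereas KIP2 rose more than 2-fold and TUB4 and TUB2 rose by smaller amounts. These 5 genes passed the test in each library type, but in total libraries KIP2 rose 1.58-fold and TUB4 1.74-fold. In polyA libraries 6 of 9 genes were called, 3 higher (TUB2, TUB4 and KIP2) and 3 lower (KAR3, TUB3 and KIP3), by edgeR's quasi-likelihood test at a Benjamini-Hochberg adjusted p under 0.05 over all genes tested. In the same test 51.0% of the 5832 genes were called, 25.7% higher and 25.4% lower, so that the number of calls among the 9 says little by itself. With a change of at least 1.5-fold, 3 of the 9 were called (KAR3, KIP2 and TUB4), beside 14.2% of all genes. The median log2 fold change was 0.084 over the 9 genes and 0.008 over all genes. In total libraries 5 of 9 were called (TUB2, TUB4 and KIP2 higher, KAR3 and TUB3 lower), beside 23.8% of the 4960 genes tested, 12.1% higher and 11.7% lower. With at least 1.5-fold, 3 of 9 were called there, beside 11.7% of all genes. Since polyA and total libraries were made from the same RNA samples, they are not independent replicates of the arrests. In RNA of whole cultures, fewer cells with a transcript and less transcript per cell cannot be told apart.

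KAR3 showed the largest difference among the 9 genes. In G1 polyA libraries it was at 214, 182 and 167 CPM in code 14 and at 131, 133 and 101 CPM in code 18. It dropped in M polyA libraries to 33.6, 38.0 and 27.4 CPM in code 14 and at 28.6, 26.4 and 23.5 CPM in code 18. Every G1 library lay above every M library, and in G1 every library of code 14 lay above every library of code 18. The log2 fold change of M against G1 was −2.36 ± 0.103 (SE, 5.14-fold lower, adjusted p = 3.5e-09). In total libraries KAR3 had a median of 95.6 CPM (42.8 to 156.8) in G1 and 19.8 CPM (11.8 to 38.6) in M, again without overlap, for a log2 fold change of −2.11 ± 0.191 (adjusted p = 1.7e-07). The fall was called within each code, with −2.51 ± 0.147 in code 14 and −2.22 ± 0.145 in code 18 in polyA libraries, and −2.08 ± 0.244 and −2.13 ± 0.295 in total libraries.

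KIP2 moved in the opposite direction. Its levels in G1 polyA libraries were 32.4, 25.1 and 25.7 CPM in code 14 and 28.4, 26.9 and 26.7 CPM in code 18. In M polyA libraries they were 58.5, 61.5 and 59.9 CPM in code 14 and 70.2, 66.4 and 70.5 CPM in code 18. The arrests did not overlap, and in M the 3 libraries of code 18 lay above those of code 14. The log2 fold change was 1.23 ± 0.067 (2.34-fold higher, adjusted p = 2.8e-08) in polyA libraries. In total libraries KIP2 had a median of 28.1 CPM (11.1 to 30.5) in G1 and 41.5 CPM (28.2 to 45.8) in M. These ranges overlapped, and the log2 fold change was 0.66 ± 0.206 (adjusted p = 0.027), smaller than in polyA libraries, although the difference between library types was not tested. The call in total libraries was lost without code 18 replicate 2 (0.49, adjusted p = 0.095), whose G1 library held the lowest KIP2 value, without code 14 replicate 1 (0.65, adjusted p = 0.076) and without code 14 replicate 2 (0.59, adjusted p = 0.11).

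TUB4, the γ-tubulin gene, was the tubulin with the largest rise. In G1 polyA libraries it was at 40.6, 39.7 and 34.3 CPM in code 14 and at 41.0, 38.2 and 57.3 CPM in code 18. In M polyA libraries it was at 82.0, 79.7 and 63.2 CPM in code 14 and at 65.3, 68.0 and 58.3 CPM in code 18. The highest G1 library, replicate 3 of code 18, lay just under the lowest M library, which bore the same code and replicate number. The other G1 libraries lay well below. The log2 fold change was 0.73 ± 0.105 in polyA libraries (1.66-fold higher, adjusted p = 0.00012) and 0.80 ± 0.189 in total libraries (1.74-fold higher, adjusted p = 0.0048). The G1 range in total libraries, 17.1 to 36.1 CPM with a median of 26.3, lay below the M range, 38.6 to 57.9 CPM with a median of 45.7.

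TUB2 rose less, but with little spread. In G1 polyA libraries it was at 274, 249 and 246 CPM in code 14 and at 252, 261 and 273 CPM in code 18. The M polyA libraries gave 348, 336 and 349.7 CPM in code 14 and at 325, 315 and 336 CPM in code 18. All M libraries lay above all G1 libraries, and the log2 fold change was 0.37 ± 0.045 (1.29-fold higher, adjusted p = 3e-05). In total libraries the G1 range of 190.0 to 259.8 CPM (median 222) overlapped the M range of 241.5 to 327.2 CPM (median 262). The log2 fold change there was 0.29 ± 0.090 (adjusted p = 0.025), a call that was lost without code 14 replicate 2 (0.19, adjusted p = 0.18) or without any 1 of the 3 replicates of code 18 (adjusted p = 0.053 to 0.075).

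TUB3, the more abundant α-tubulin gene, fell. In G1 polyA libraries it was at 300.2, 270.1 and 287 CPM in code 14 and at 296, 318 and 303 CPM in code 18. The M polyA libraries gave 247, 233 and 251 CPM in code 14 and at 242, 236 and 231 CPM in code 18. All M libraries lay below all G1 libraries, with a log2 fold change of −0.30 ± 0.044 (1.23-fold lower, adjusted p = 0.00013). Total libraries gave −0.33 ± 0.078 (1.25-fold lower, adjusted p = 0.0053), from a median of 207 CPM (194 to 225) in G1 to 167 CPM (148 to 184) in M, without overlap. An annotated non-coding RNA, YNCM0001W, overlaps TUB3 on the opposite strand, and the counting was strand-specific.

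TUB1, the other α-tubulin gene, was not called. Its G1 polyA libraries ran from 129.6 to 172 CPM with a median of 142, and its M polyA libraries from 132 to 180.1 CPM with a median of 153. The ranges overlapped almost entirely, and the log2 fold change was 0.084 ± 0.066 (adjusted p = 0.32). Total libraries gave a log2 fold change of 0.039 ± 0.114 (adjusted p = 0.85).

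KIP3 stood close to the threshold. Its level ran from 62.0 to 79.8 CPM (median 66.5) in G1 polyA libraries and from 54.1 to 68.4 CPM (median 59.6) in M polyA libraries, with overlap. The log2 fold change was −0.17 ± 0.066 (1.13-fold lower, adjusted p = 0.046), and the call was lost without any 1 of 5 of the 6 cultures (adjusted p = 0.057 to 0.19), the exception being code 18 replicate 2. In total libraries the log2 fold change was −0.26 ± 0.137 and did not pass the test (adjusted p = 0.19).

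The kinesin-5 genes did not pass the test in either library type. KIP1 ran from 24.4 to 39.8 CPM (median 27.7) in G1 polyA libraries and from 29.9 to 39.1 CPM (median 34.9) in M, with a log2 fold change of 0.215 ± 0.095 (adjusted p = 0.079). CIN8 ran from 28.7 to 43.4 CPM (median 31.2) in G1 and from 20.3 to 41.4 CPM (median 26.5) in M, with a log2 fold change of −0.24 ± 0.152 (adjusted p = 0.2). The standard error of CIN8 was the largest of the 9, and the ranges of both genes overlapped between the arrests. In total libraries the log2 fold changes were 0.31 ± 0.167 for KIP1 (adjusted p = 0.2) and −0.18 ± 0.221 for CIN8 (adjusted p = 0.62).

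Within single codes the called genes kept their direction. In polyA libraries 6 of 9 genes were called in code 14, beside 36.3% of all genes, and 5 of 9 in code 18, beside 37.6%. TUB2, TUB3, TUB4, KIP2 and KAR3 were called in each code, and KIP1 was called higher in code 14 (0.435 ± 0.137, adjusted p = 0.026) but not in code 18 (−0.006 ± 0.133, adjusted p = 0.98). In total libraries 3 of 9 were called in code 14 (TUB2, TUB4 and KAR3), beside 16.1% of all genes, and 3 of 9 in code 18 (TUB3, KIP2 and KAR3), beside 14.2%.

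**Figure D2:**
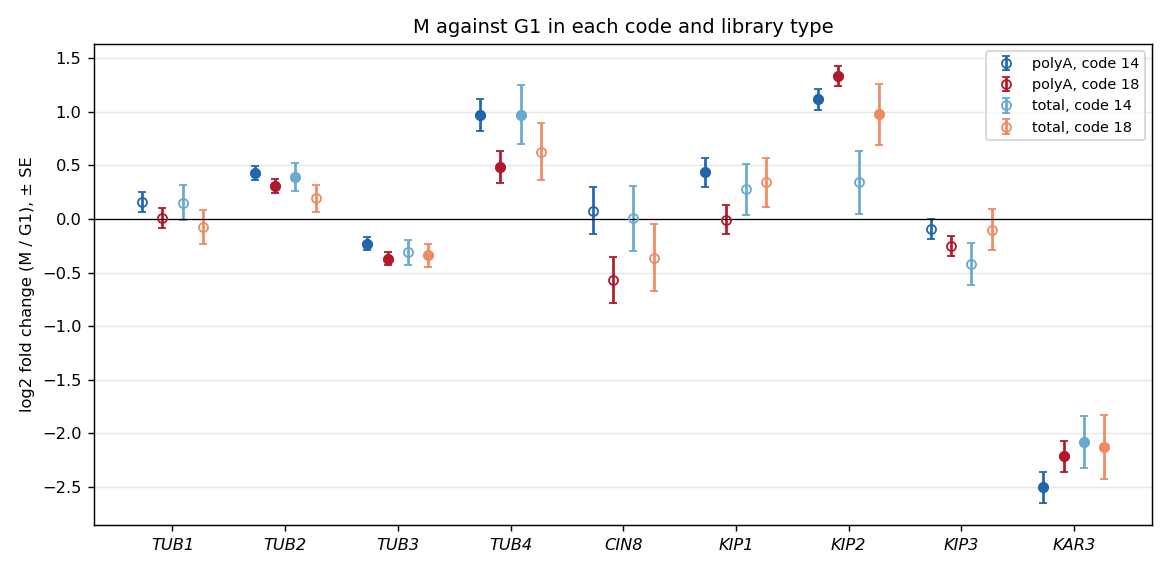
Log2 fold change of M against G1 for each gene, within each code and library type, with bars of 1 standard error from edgeR. Filled points passed an adjusted p of 0.05 over all genes and open points did not. KAR3 lies between −2.51 and −2.08 in all 4 series, and KIP2 between 0.34 and 1.34.

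Whether the codes differed in their response to the arrest was tested with the interaction of arrest and code. It called 0 of 9 genes in polyA libraries, beside 3.72% of all genes, and 0 of 9 in total libraries, beside 2.62%. By edgeR, 2 genes in polyA libraries (KIP1 and TUB4) and 0 in total libraries had an unadjusted p under 0.05, and DESeq2 also called 0 in each. The interaction was −0.44 ± 0.191 for KIP1 and −0.48 ± 0.210 for TUB4 on the log2 scale (adjusted p = 0.21 for each). The call of KIP1 in code 14 alone is therefore not shown to differ between the codes. CIN8 had the largest interaction in polyA libraries, −0.65 ± 0.304 (adjusted p = 0.24), with a log2 fold change of 0.079 ± 0.216 in code 14 and −0.57 ± 0.213 in code 18, neither of them called.

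Ratios between genes counted in the same library do not depend on how libraries are scaled, and 4 were compared over 6 M and 6 G1 libraries in each library type, by an exact two-sided permutation test of the mean log2 ratio with adjustment over the 8 tests. Counts were divided by coding length. The smallest p that 6 against 6 can give is 0.00216. The permutation shuffles libraries without regard to code or culture. With G1 and M paired by culture, the ratios that passed did so again, at an adjusted p of 0.0357 (exact sign-flip test). The α-tubulin pool shifted from TUB3 towards TUB1, the α-tubulin genes together lost ground to TUB2, CIN8 fell relative to KIP1 in polyA libraries, and KAR3 gave up most of its share of the kinesin transcripts.

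The ratio of TUB3 to TUB1 was 2.07 ± 0.233 in G1 and 1.58 ± 0.165 in M polyA libraries (SD, n = 6 each), a difference of −0.39 on the log2 scale (exact permutation p = 0.0108, adjusted p = 0.0124). It was lower in M in 6 of 6 cultures, although the ranges of 1.75 to 2.26 and 1.38 to 1.796 overlapped slightly. TUB3 accordingly made up 67.2 ± 2.60% of α-tubulin transcripts in G1 and 61.1 ± 2.46% in M. In total libraries the ratio was 1.899 ± 0.110 in G1 and 1.51 ± 0.251 in M, a difference of −0.34 (exact permutation p = 0.00866, adjusted p = 0.0115), and lower in M in 6 of 6 cultures. TUB3 stood above TUB1 in each of the 24 libraries. The coding sequences of TUB1 and TUB3 were identical in 80.88% of 1344 aligned positions. They shared 0 of 1269 words of 76 bases, the read length, and 10 of 1320 words of 25 bases. No full-length read within the coding sequences could therefore match both exactly. Matches with mismatches were not examined.

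The ratio of α- to β-tubulin transcripts, TUB1 plus TUB3 over TUB2, had the smallest spread of the 4 in polyA libraries. It was 1.74 ± 0.044 in G1 and 1.205 ± 0.035 in M polyA libraries (SD, n = 6 each), with G1 libraries between 1.67 and 1.802 and M libraries between 1.15 and 1.26. The groups were far apart, at −0.53 on the log2 scale (exact permutation p = 0.00216, the smallest possible, adjusted p = 0.00577). The ratio in total libraries was 1.49 ± 0.157 in G1 and 1.06 ± 0.156 in M, a difference of −0.49 (exact permutation p = 0.00433, adjusted p = 0.00866). It was lower in M in 6 of 6 cultures in each library type.

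The ratio of CIN8 to KIP1 was 1.26 ± 0.084 in G1 and 0.914 ± 0.203 in M polyA libraries (SD, n = 6 each), lower in M in 6 of 6 cultures, although neither gene was called by itself. The difference was −0.48 on the log2 scale (exact permutation p = 0.00866, adjusted p = 0.0115). In total libraries it was −0.52 and did not pass (exact permutation p = 0.0563, adjusted p = 0.0563), with a lower ratio in M in 5 of 6 cultures. Counts of CIN8 and KIP1 were 10 to 37 in a total library, and code 18 replicate 3 in M held the lowest ratio there, 0.370. Without that culture the difference was −0.30 (adjusted p = 0.151).

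KAR3 made up 52.8 ± 7.55% of the transcripts of the 5 kinesin genes in G1 polyA libraries and 15.1 ± 1.78% in M (SD, n = 6 each). The ratio of KAR3 to the other 4 ran from 0.703 to 1.49 in G1 and from 0.143 to 0.214 in M, a difference of −2.66 on the log2 scale (exact permutation p = 0.00216, adjusted p = 0.00577). In total libraries the share was 43.3 ± 9.82% in G1 and 14.6 ± 5.87% in M, with a log2 difference of −2.24 and the same p values. The G1 share was higher in code 14 than in code 18 in every polyA library.

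**Figure D3:**
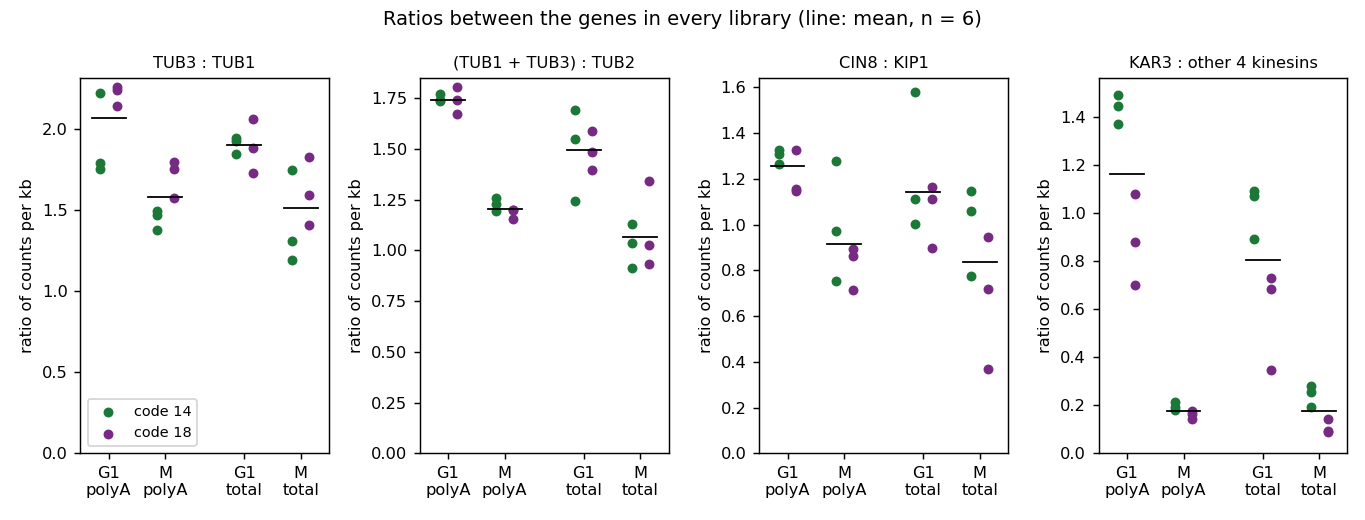
Ratios of counts per kilobase in every library: TUB3 to TUB1, TUB1 plus TUB3 to TUB2, CIN8 to KIP1, and KAR3 to the other 4 kinesin genes. Points are libraries (green code 14, purple code 18) and lines are means over 6 libraries. In polyA libraries the α- to β-tubulin ratio lies between 1.67 and 1.802 in G1 and between 1.15 and 1.26 in M.

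The comparison of the codes within an arrest was taken to concern strain, the factor that remains in the labels, without saying which strain was which. KAR3 was the only gene of the 9 that passed the test in the analysis as planned, and it was lower in code 18 in G1. In G1 1 of 9 genes was called in polyA libraries, beside 15.9% of all genes, and 1 of 9 in total libraries, beside 8.61%. In M 0 of 9 were called in polyA libraries, beside 12% of all genes, and 0 of 9 in total libraries, beside 3.73%. By edgeR, 4 genes in M polyA libraries (TUB1, KIP2, KIP3 and KAR3) and 1 in M total libraries (KAR3) had an unadjusted p under 0.05, and DESeq2 called 0 in each. A count of 0 or 1 of 9 does not set these genes apart from all genes.

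KAR3 was lower in code 18 by −0.62 ± 0.136 on the log2 scale in G1 polyA libraries (1.54-fold lower, adjusted p = 0.0088) and by −1.09 ± 0.210 in G1 total libraries (2.13-fold lower, adjusted p = 0.0026). The G1 polyA call was lost without code 14 replicate 1, the library with the highest KAR3 level (−0.52, adjusted p = 0.052). In M the difference was −0.34 ± 0.147 in polyA libraries (adjusted p = 0.17) and −1.14 ± 0.344 in total libraries (adjusted p = 0.081). With the replicate number as a block, KAR3 in M polyA libraries passed at −0.33 (adjusted p = 0.034). In M total libraries it passed with that block, without the low-count filter and without code 14 replicate 3.

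Of the 4 markers of pheromone-treated G1, FIG1 and FUS1 were called lower in code 18 in G1 polyA libraries, as KAR3 was, and AGA1 and SIC1 were not called. In G1 polyA libraries FIG1, a mating membrane protein gene, was at 851 ± 125 CPM in code 14 and 396 ± 114 CPM in code 18 (SD, n = 3 each). FUS1, needed for cell fusion, was at 559.9 ± 39.1 and 324 ± 81.6 CPM, and AGA1, an agglutinin gene that did not pass (adjusted p = 0.26), at 6890 ± 671 and 5587 ± 1415 CPM. The markers called were thus 2 of 4 in G1 polyA libraries, beside 15.9% of all genes, and 4 of 4, SIC1 included, in M polyA libraries, beside 12%. All were lower in code 18. In total libraries they were 2 of 4 in G1, beside 8.61%, and 1 of 4 in M, beside 3.73%, again lower. Of the 4 a-cell markers, 1 was called in G1 and 4 in M polyA libraries, and 0 in G1 and 1 in M total libraries. All of these were lower in code 18 and stand beside the same shares of all genes. CIK1 was called lower in code 18 in G1 polyA libraries too, at −0.998 ± 0.179 on the log2 scale (adjusted p = 0.0029), and VIK1 higher, at 0.57 ± 0.136 (adjusted p = 0.015). The part of the pheromone-treated G1 markers in the KAR3 difference was not tested. Of the 5 mitosis markers, 2 were called lower in code 18 in G1 polyA libraries, beside 15.9% of all genes, and 1 higher in M polyA libraries, beside 12%. The interaction of arrest and code called 1 of the 5 in polyA libraries, beside 3.72%. In total libraries 1 mitosis marker was called lower in code 18 in G1, and 0 were called in M or in the interaction.

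The other 8 genes did not pass between the codes in any of the 4 comparisons as planned. KIP1 came nearest, with 27.6, 24.4 and 25.8 CPM in code 14 and 39.8, 27.8 and 36.3 CPM in code 18 in G1 polyA libraries. The libraries of code 18 lay above those of code 14, the lowest only just, by 0.43 ± 0.135 on the log2 scale (adjusted p = 0.051). It passed in DESeq2 (adjusted p = 0.029), with the replicate number as a block (0.045) and without code 18 replicate 2 (0.56, adjusted p = 0.013), but in G1 total libraries the difference was −0.015 ± 0.241 (adjusted p = 0.99). TUB1 was at 180.1, 159 and 168 CPM in code 14 and at 138, 132 and 147 CPM in code 18 in M polyA libraries. These ranges did not overlap, and the difference was −0.28 ± 0.094 (adjusted p = 0.076).

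**Figure D4:**
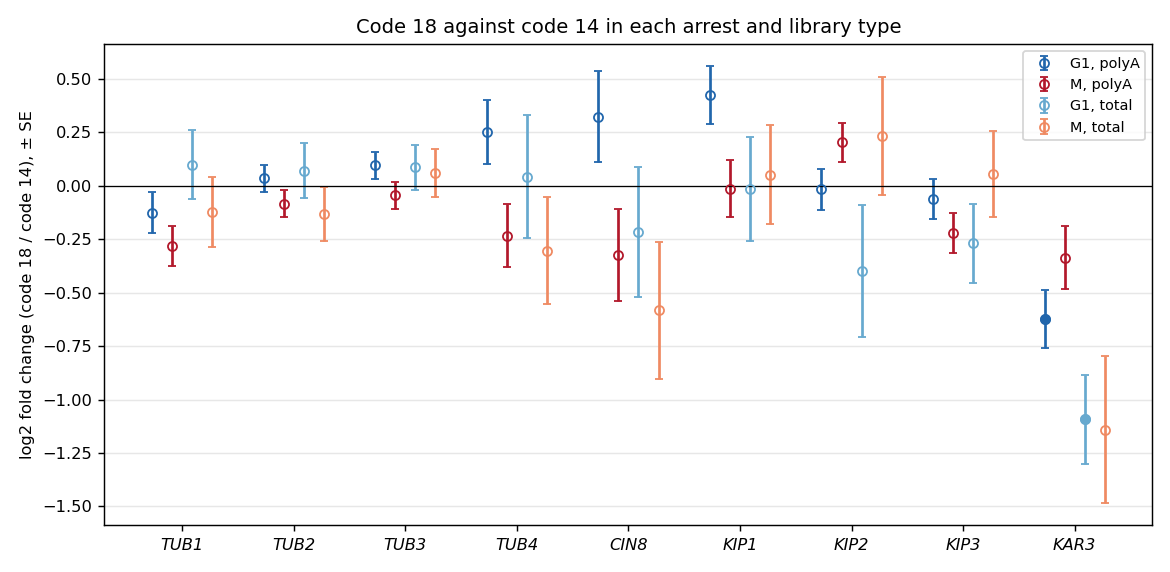
Log2 fold change of code 18 against code 14 for each gene, within each arrest and library type, with bars of 1 standard error from edgeR. Filled points passed an adjusted p of 0.05 over all genes and open points did not. Only KAR3 in G1 is filled, at −0.62 in polyA libraries and −1.09 in total libraries.

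The genes that act with tubulin and kinesins were described in 8 lists of 59 genes. In polyA libraries 17 of the 59 rose and 13 fell in M, beside the 25.7% and 25.4% of all genes. In code 14 alone 19 rose and 5 fell, beside 36.3% of all genes called in either direction, 52.7% of them higher. In code 18 alone 9 rose and 11 fell, beside 37.6% of all genes, 49.9% of them higher. In total libraries 46 were tested, of which 5 rose and 4 fell, beside the 12.1% and 11.7% of all genes. The values that follow are from polyA libraries over both codes, except where stated.

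Genes of the γ-tubulin complex and spindle pole body stood on the side of TUB4, with a median log2 fold change of 0.26. Of the 8, 5 were higher and 1 lower, beside 25.7% and 25.4% of all genes. Within the codes 6 of 8 were higher in code 14, beside 36.3% of all genes called in either direction. In code 18, 2 were higher and 1 lower, beside 37.6%, although the interaction called 0 of 8. In total libraries 2 of 7 were higher (SPC97 and NUD1) and 1 lower (SPC110), beside 12.1% and 11.7% of all genes. SPC97, a partner of γ-tubulin in the nucleating complex, rose by 1.47 ± 0.155 (adjusted p = 9.6e-06), from 20.4 ± 7.43 to 55.5 ± 3.97 CPM (SD, n = 6). NUD1, a scaffold of the outer plaque, rose by 1.45 ± 0.096 (adjusted p = 1.6e-07). SPC29, of the central plaque, rose by 1.24 ± 0.206 (adjusted p = 0.00034).

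The partners of Kar3 separated. CIK1 fell from 165 ± 66.3 CPM in G1 to 36.4 ± 6.12 CPM in M (SD, n = 6), a log2 fold change of −2.10 ± 0.134 (adjusted p = 1.1e-07) that was of the same order as that of KAR3. VIK1 rose from 11.9 ± 2.71 to 21.6 ± 2.76 CPM, by 0.89 ± 0.094 (adjusted p = 1e-05). Within each code 1 of the 2 partners was called higher and 1 lower. The interaction of arrest and code called 1 of the 2, with a lower log2 fold change in code 18, beside 3.72% of all genes. In total libraries CIK1 fell by 2.15 on the log2 scale (adjusted p = 3.3e-08), and VIK1 did not pass the filter on low counts.

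Among microtubule-associated and midzone genes 3 of 10 rose and 3 fell, beside 25.7% and 25.4% of all genes. In total libraries 2 of 7 rose and 2 fell, beside 12.1% and 11.7%. STU2, the microtubule polymerase, rose by 1.33 ± 0.098 (adjusted p = 4.2e-07), from 47.1 ± 10.99 to 117 ± 11.1 CPM (SD, n = 6). KAR9 and BIM1, which orient cytoplasmic microtubules towards the bud, changed by −0.71 ± 0.081 (adjusted p = 1.7e-05) and −0.49 ± 0.064 (adjusted p = 5.4e-05). The DASH complex, which couples kinetochores to microtubules, had 1 of 10 higher and 2 lower, namely SPC34 at 0.46 ± 0.082, DAD4 at −0.44 ± 0.132 and ASK1 at −0.31 ± 0.070. These stand beside the same 25.7% and 25.4% of all genes. In total libraries 0 of 3 DASH genes were called.

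Of the dynein and dynactin genes, which pull the spindle through cytoplasmic microtubules, 4 of 9 were called, all higher, with PAC11 at 0.61 ± 0.111, NUM1 at 0.36 ± 0.056 and DYN1 at 0.33 ± 0.050. In total libraries 1 of the 9 was called, also higher. The test called 51.0% of all genes in polyA libraries and 23.8% in total libraries. The tubulin folding cofactors had 3 of 6 higher and 1 lower, beside 25.7% and 25.4% of all genes, and 0 of 5 called in total libraries. CIN2 rose by 0.86 ± 0.143 and RBL2, which binds β-tubulin, by 0.41 ± 0.117, whereas PAC2, the cofactor that binds α-tubulin, changed by −0.69 ± 0.077. Of prefoldin, the chaperone that passes nascent tubulin and actin to the CCT chaperonin, 4 of 6 were called, all lower (GIM4 −0.39 ± 0.117, YKE2 −0.36 ± 0.101 and GIM5 −0.28 ± 0.098). Beside these stand the 51.0% of all genes called in either direction. Within the codes 0 of 6 prefoldin genes were called in code 14, beside 36.3% of all genes, and 3 in code 18, all lower, beside 37.6%. In total libraries 0 of 6 were called. Of the CCT subunits 1 of 8 was called, lower (CCT2, −0.11 ± 0.040), and 0 of 8 in total libraries. Medians were −0.22 for prefoldin and −0.054 for CCT, against 0.008 over all genes.

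**Figure D5:**
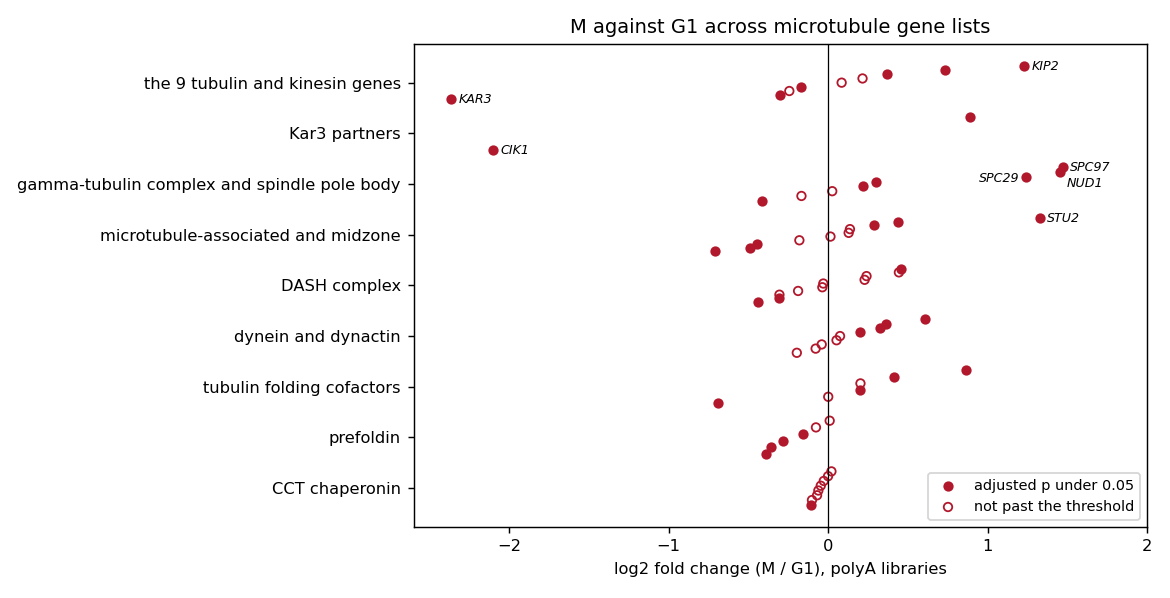
Log2 fold change of M against G1 in polyA libraries for the 9 tubulin and kinesin genes and for 8 lists of genes that act with them. Each point is a gene, filled where it passed an adjusted p of 0.05 over all genes. KAR3 at −2.36 and CIK1 at −2.10 stand apart on the left, and SPC97, NUD1, STU2, SPC29 and KIP2 lie above 1 on the right.

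The genes most like the members at either end were looked up by Pearson's correlation of log2 CPM over the 12 polyA libraries, which share arrest and depth, as a description. For KAR3 they were KAR5 (r = 0.997), FUS2 (r = 0.997) and KAR4 (r = 0.997), genes of nuclear fusion, cell fusion and their regulation in mating, with log2 fold changes in M of −3.09, −4.68 and −3.57. For KIP2 they were HOF1 (r = 0.993), HST3 (r = 0.990) and CDC20 (r = 0.989), a cytokinesis gene, a histone deacetylase gene and the activator of the anaphase-promoting complex, with log2 fold changes of 4.58, 2.53 and 1.06. KIP2 thus changed less than HOF1 and HST3, and KAR3 less than all 3 of its neighbours.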

How the data were processed

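PolyA and total RNA libraries were single-end, strand-specific 76 bp reads; total libraries kept their ribosomal RNA. According to the methods and the submitters' processing notes, the authors trimmed reads with cutadapt 1.9.1 and counted them per gene with RSEM 1.3.0 and STAR 2.5.2a against assembly R64, and tested them with DESeq2 1.12.3. The deposited values used here are the authors' expected counts, not normalised, which were rounded to whole numbers. Where a read matches more than a single gene, RSEM assigns it in fractions. A further 24 per-sample columns of the table were not used. Columns were placed in groups by the arrest and library type in their names.

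The 16 ribosomal rows and 92 ERCC rows were left out, as in the study. For each library type, the 12 libraries were fitted with edgeR 4.0.16 (TMM, filterByExpr with a minimum count of 10, quasi-likelihood test, 4 cells of arrest by code), without a replicate block as in the study, and p-values were adjusted by Benjamini-Hochberg over all 5832 polyA or 4960 total genes tested. Standard errors were derived from the F statistic. On simulated counts the M against G1 test recovered 90% of 1.5-fold changes (0.585 on the log2 scale) in polyA libraries (5832 genes) and 54% in total libraries (4960 genes). False calls numbered 9 and 6. The simulation changed 100 genes at each size, gave every gene the same spread and held no code or culture effect. These shares are therefore not the power for the 9 genes. Replicate libraries differed by more than sampling noise (chi-square per degree of freedom 2.10 to 33.2), so none was counted as a duplicate. The labels call the replicates biological.

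By the methods, cultures were sampled in G1 and then released and sampled in M. That a code and replicate number marks the same culture in both arrests was inferred from the matching numbers. Correlations between such G1 and M libraries, as deviations from the group means, ran from −0.201 to 0.513 in polyA and from 0.02 to 0.097 in total libraries. They do not by themselves establish the pairing. Between codes the number is only a number (−0.05 to 0.263).

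The promoter search is not reported here for 1 of the genes. All 9 genes were named in every comparison of levels, with YCG1 as the targeted gene, the 3 called genes of each list with the largest change, and the 3 genes most correlated with the members at either end. The members, lists and tests were chosen with earlier results of these data known. Alternatives were DESeq2 1.42.0, its size factors, no low-count filter, ribosomal and ERCC rows kept, only the libraries compared, a replicate block, a 1.5-fold rule, and leaving out each culture; for ratios, a pseudocount of 0.5 and single codes.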

Additional observations from a re-analysis of the deposited data

Results flagged for a closer look

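Among 52 groups of 6 libraries checked for a library far from the others, 2 held such a library, and chance alone marks about 1 in 20 groups. KIP2 in G1 total libraries was at 11.13 CPM in code 18 replicate 2, where the other 5 libraries lay between 24.83 and 30.46 CPM. TUB4 in G1 polyA libraries was at 57.26 CPM in code 18 replicate 3, where the other 5 lay between 34.34 and 41.04 CPM. In the total library of that culture TUB4 was also the highest of the G1 group, at 36.05 CPM, and in the G1 polyA library of code 18 replicate 2 KIP2 was at 26.9 CPM, within the range of its group.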

How the results depend on the processing

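Calls rest on 3 libraries per arrest and code, and in total libraries on as few as 8 counts per gene, which limits what can be detected there. Among the ratios and the single-gene values that were recomputed, no called value changed its direction under any alternative. Of the recomputed values for single genes, 599 stayed on their side of the threshold, 17 no longer passed the test and 5 newly passed. These were KIP3 (M against G1, polyA), TUB2 and KIP2 (M against G1, total), and KAR3 and KIP1 (between the codes, polyA). Not among these values were single genes for M against G1 within single codes, for the interaction in total libraries, and between the codes in M total libraries. In the last of these KAR3 newly passed under 3 alternatives. The cause of these changes was not tested. Among the 599, an uncalled value changed its sign in 19 cases.

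Under the rule that adds a change of at least 1.5-fold, 3 of 9 genes were called for M against G1 in polyA libraries, 3 in code 14 alone, 2 in code 18 alone, and 3 in total libraries. With DESeq2, 3 were called for M against G1 in total libraries, 1 in code 14 alone, 1 in code 18 alone, and 2 between the codes in G1 polyA libraries. In the same comparisons DESeq2 called 798, 562, 497 and 1094 of all genes, against 1178, 801, 704 and 925 as planned. With ribosomal and ERCC rows kept, 2 were called between the codes in G1 polyA libraries, and without the low-count filter 1 (KAR3) in M total libraries. Over all genes these settings called 966 and 222, against 925 and 185 as planned. With the replicate block, 2 genes (KAR3 and KIP1) were called between the codes in G1 polyA libraries, 1 (KAR3) in M polyA libraries and 1 (KAR3) in M total libraries, where the number is not known to pair the codes. With the culture as a block, M against G1 called 6 genes in polyA and 5 in total libraries, as without it, and the ratios that had passed passed again (adjusted p = 0.0357, exact sign-flip over 6 cultures, whose smallest p is 0.0312). The CIN8 to KIP1 ratio in total libraries gave 0.0625.

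Leaving out each culture in turn, the calls ran from 3 to 5 for M against G1 in total libraries, from 1 to 3 in code 14 alone and from 1 to 3 in code 18 alone. Between the codes they ran from 0 to 2 in G1 polyA and from 0 to 1 in M total libraries. The CIN8 to KIP1 difference in total libraries ran from −0.631 to −0.304 and passed only without code 14 replicate 2 (adjusted p = 0.0476). Fitted on the G1 polyA libraries alone, the code comparison called 676 of all genes, 36.5% of them higher in code 18, against 925 and 47.5%, and without code 18 replicate 1 it called 434. Within single codes, 3 against 3 libraries cannot give an exact p below 0.1, and the ratio differences kept their sign.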
